A study of Mus musculus with 6 samples.

Results

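The genes described here take glucose into the cell, break it down to lactate, or restrain the use of pyruvate in the mitochondrion. They are the glucose transporters Slc2a1 and Slc2a3, the hexokinases Hk1 and Hk2, the phosphofructokinase Pfkp, the aldolases Aldoa and Aldoc, the phosphoglycerate kinase Pgk1, the lactate dehydrogenase Ldha and the pyruvate dehydrogenase kinase Pdk1. They were chosen by name, and each was represented by the brightest probe set (by its mean over the 6 arrays) that names that gene and no other. Of the 10 genes, 9 had such a probe set, among 22180 genes measured in all. The probe set that names Aldoa also names another gene, so Aldoa was not analysed here.

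RNA came from CD4+CD8+ double-positive thymocytes, an immature stage of T-cell development in the thymus in which both coreceptors are on the surface. On 3 arrays the cells came from mice labelled Ets1-/-, a genotype written for loss of the lymphocyte transcription factor Ets1, and on 3 arrays from wild-type mice, all C57BL/6 and 5 to 6 weeks old. In both genotypes the cells were fixed in formaldehyde before sorting on magnetic beads, by CD8 and afterwards by CD4. By the labels, cohorts of litter mates served as replicates. How many animals went into an array, which part of Ets1 is deleted and in which cells are not stated there.

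Glucose enters a cell through carriers of the SLC2A family and is trapped there by hexokinase as glucose 6-phosphate. Phosphofructokinase commits it to glycolysis, aldolase splits the sugar, phosphoglycerate kinase yields ATP, and lactate dehydrogenase turns the resulting pyruvate to lactate. Pyruvate can instead be used inside the mitochondrion by pyruvate dehydrogenase, which the PDK kinases switch off by phosphorylation and the PDP phosphatases switch on. The factors HIF-1 and Myc activate many of these genes in mammalian cells. In the thymus, dividing precursors use much glucose, while most double-positive cells are small and resting.

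Pdk1 was lower in Ets1-/- thymocytes on every array, with 3.14-fold less signal than in wild type, and was the single gene of the 9 that passed the test, also after each array was centred on its median. That share, 1 of 9, stands beside 0.568% of all genes called lower (126 of 22180; limma, Benjamini-Hochberg adjusted p under 0.05), and 0 of the 9 were called higher, where 1.29% of all genes were. After centring it stands beside 0.902% of all genes called lower. On the deposited values the Pdk1 call was lost without any 1 array other than Ets1-/- replicate 1 (adjusted p of 0.0578 to 0.103) and with the replicate number as a block (0.0700). Slc2a3 was next, with a difference of -1.43 on the log2 scale that did not pass. The transporter Slc2a1, the hexokinase Hk2 and the phosphofructokinase Pfkp had differences between -0.10 and 0.10. In whole-population RNA, fewer cells that carry a transcript and less of it per cell cannot be told apart.

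Some facts of the whole series bear on these values. Values were read as log2 signal of a probe set, so a difference of 1 means a factor of 2, and levels of different probe sets cannot be compared. Array medians ran from 3.66 to 4.31 in Ets1-/- and from 4.21 to 4.33 in wild type. Replicate 1 of Ets1-/- had the 3.66. The median difference over all genes was -0.22 as deposited and -0.01 after each array was centred on its median, so a small negative difference is the background here. Ets1 itself had a log2 signal of 9.27, 9.22 and 8.79 in Ets1-/- and of 9.11, 9.32 and 9.17 in wild type, a difference of -0.10 ± 0.23 (SE; limma adjusted p = 0.860) that turned to 0.11 after median centring. It is not stated which part of the gene its probes cover, so this value does not check the labels.

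The 250 bases before the annotated start of transcription are shown for the called gene Pdk1, for Ldha and Pgk1, whose values were lower without passing the test, and for Slc2a1, whose groups overlapped. They come from RefSeq, build GRCm38.p6, and run 5′ to 3′ on the gene's strand. Capitals mark ACGTG and GCGTG, the core letters that HIF-1 binds, searched on both strands, so their reverse complements are capitalised too.
Pdk1, chr2:71872974-71873223, + strand: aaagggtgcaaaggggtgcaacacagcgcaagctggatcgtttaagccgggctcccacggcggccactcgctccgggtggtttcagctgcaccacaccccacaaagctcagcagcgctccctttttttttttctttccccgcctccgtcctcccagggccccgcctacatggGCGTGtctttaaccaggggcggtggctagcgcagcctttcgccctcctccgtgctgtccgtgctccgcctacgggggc
Ldha, chr7:46845554-46845803, + strand: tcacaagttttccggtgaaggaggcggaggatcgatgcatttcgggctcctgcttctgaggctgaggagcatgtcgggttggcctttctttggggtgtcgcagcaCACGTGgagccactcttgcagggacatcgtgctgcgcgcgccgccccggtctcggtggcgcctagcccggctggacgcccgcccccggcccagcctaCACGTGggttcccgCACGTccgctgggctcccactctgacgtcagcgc
Pgk1, chrX:106186850-106187099, + strand: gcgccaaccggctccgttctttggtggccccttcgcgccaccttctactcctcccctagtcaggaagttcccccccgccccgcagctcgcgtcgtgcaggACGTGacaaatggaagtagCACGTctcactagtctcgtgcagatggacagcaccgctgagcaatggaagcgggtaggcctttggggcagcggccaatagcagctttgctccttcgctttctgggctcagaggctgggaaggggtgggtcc
Slc2a1, chr4:119108495-119108744, + strand: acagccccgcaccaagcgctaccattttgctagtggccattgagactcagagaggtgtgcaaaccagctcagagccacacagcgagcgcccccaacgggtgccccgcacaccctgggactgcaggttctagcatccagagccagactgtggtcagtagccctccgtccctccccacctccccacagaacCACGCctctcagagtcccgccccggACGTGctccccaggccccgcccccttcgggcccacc

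At the Pdk1 start the window held 1 match, beginning 78 bases upstream. The Ldha window held 5, of which 4 overlap in pairs, because CACGTG holds ACGTG on both strands. The Pgk1 window held 2 and the Slc2a1 window 2. RefSeq listed 15 starts for 9 of the 10 genes (Slc2a3 was not matched), and 12 of these 15 windows, covering all 9 genes, held at least 1 match. Among 32851 windows of this length at all listed starts, 38.6% held one. That is a share of windows, not of genes, and was not matched for base composition. The windows at Aldoa starts 2 and 3, counted from upstream, overlap, and the same match was counted in both. A second Pdk1 start, downstream of the first, had 0 matches. The letters CCGGAAGT, a strong form of the site that ETS factors bind, stood in 0 of the 15 windows and in 2.88% of all windows, and the short ETS core GGAA stood in 14 of the 15 and in 93.4% of all. These matches describe letters only and are not evidence of binding.

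Of the carriers, Slc2a1 encodes GLUT1, the main glucose transporter of activated lymphocytes. Slc2a1 signal (log2) was 6.68, 7.14 and 7.34 in Ets1-/- and 7.55, 7.13 and 6.79 in wild type. The groups overlapped over most of their range, and the difference of -0.10 ± 0.29 (SE; 95% interval -0.78 to 0.57; limma adjusted p = 0.890) was smaller than the spread within either group. It turned to 0.11 after median centring. A dimmer probe set for Slc2a1 read 3.98, 3.91 and 4.09 in Ets1-/- and 4.17, 4.51 and 4.45 in wild type. There the groups did not overlap, but the difference of -0.38 did not pass (limma adjusted p = 0.561 over all 41345 probe sets).

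Slc2a3 encodes GLUT3, a carrier of high affinity found in neurons and in white blood cells. On the arrays it had a log2 signal of 2.38, 2.65 and 3.58 in Ets1-/- and 4.37, 4.55 and 3.96 in wild type. All 3 Ets1-/- values lay below all 3 wild-type values, and each was also below the median of all probe sets on its own array. The difference was -1.43 ± 0.35 (SE; 95% interval -2.25 to -0.61), with an unadjusted limma p of 0.00389 and an adjusted p of 0.110. Slc2a3 passed the test without Ets1-/- replicate 3 (-1.78, adjusted p = 0.0487) and with an intensity trend and robust prior (adjusted p = 0.0154), a setting that called 2.5% of all genes lower. With a pseudocount of 16 added before the logarithm, which damps dim signals, the difference was -0.60 (adjusted p = 0.0796).

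Neither of the 2 hexokinases, which phosphorylate glucose, passed the test. Hk1, the housekeeping form, had a log2 signal of 5.38, 6.27 and 5.56 in Ets1-/- and 6.47, 6.69 and 5.93 in wild type. One Ets1-/- array, replicate 2, lay within the wild-type range, and the difference was -0.63 ± 0.32 (SE; 95% interval -1.38 to 0.12; limma adjusted p = 0.474). Hk2, the form induced in growing cells, had 4.73, 5.44 and 5.09 in Ets1-/- and 4.78, 5.15 and 5.02 in wild type. Its difference was 0.10 ± 0.26 (SE; 95% interval -0.50 to 0.71; limma adjusted p = 0.877). After median centring it was 0.31 (adjusted p = 0.533), and the lowest Ets1-/- value of Hk2 then tied with the highest wild-type value at 2 decimals. Whether Hk1 and Hk2 differ from each other in their change was not tested.

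Neither gene measured for the middle steps passed the test. Pfkp, the platelet-type phosphofructokinase that is also made in lymphocytes, had a log2 signal of 7.28, 7.39 and 7.57 in Ets1-/- and 7.50, 7.51 and 7.48 in wild type. The Ets1-/- arrays (SD 0.14) lay on both sides of the wild-type arrays (SD 0.015). The difference was -0.09 ± 0.21 (SE; 95% interval -0.58 to 0.40; limma adjusted p = 0.870) and turned to 0.12 after median centring. Aldoc, the aldolase best known from brain, had 3.76, 4.21 and 2.90 in Ets1-/- and 4.30, 4.45 and 4.41 in wild type. The groups did not overlap, but the Ets1-/- values spread widely (SD 0.67, against 0.079 in wild type), and the difference was -0.76 ± 0.34 (SE; 95% interval -1.56 to 0.04; limma adjusted p = 0.406). It was -0.40 without Ets1-/- replicate 3 and -0.36 with the pseudocount of 16. After median centring it was -0.55, and the groups overlapped.

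Pgk1 encodes the phosphoglycerate kinase of somatic cells. Its log2 signal was 7.93, 8.07 and 8.32 in Ets1-/- and 8.50, 8.44 and 8.33 in wild type. The highest Ets1-/- value and the lowest wild-type value were nearly equal. The difference was -0.32 ± 0.22 (SE; 95% interval -0.83 to 0.19; limma adjusted p = 0.581), and after median centring it was -0.11.

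Ldha encodes the subunit of lactate dehydrogenase that favours lactate production. Its log2 signal was 7.36, 7.34 and 7.70 in Ets1-/- and 8.04, 8.06 and 7.84 in wild type. All Ets1-/- arrays were below all wild-type arrays. The difference was -0.51 ± 0.22 (SE; 95% interval -1.03 to 0.01; limma adjusted p = 0.389). Part of it moved with the array medians: after centring it was -0.30, and the groups overlapped. The 6 values of Ldha and Pgk1, each centred on its own mean, were the most alike among the 9 genes, with a root mean square difference of 0.111.

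**Figure D1:**
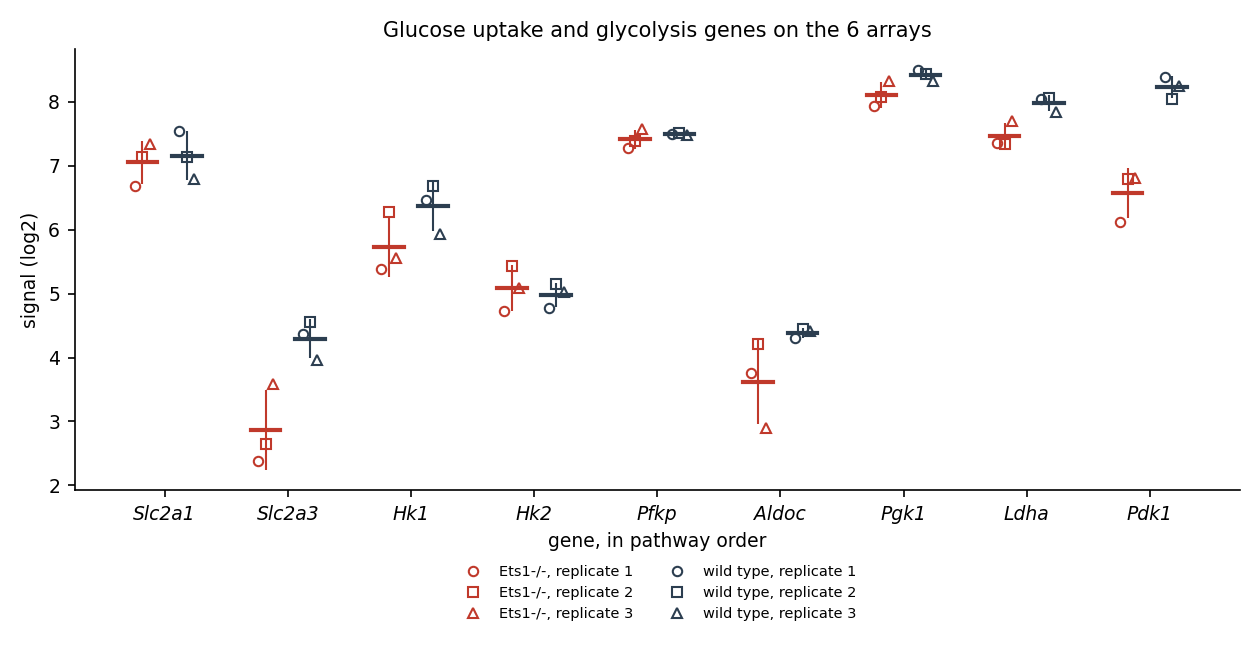
Log2 signal of the 9 measured genes on the 6 arrays, in pathway order from glucose entry to pyruvate control. Each symbol is 1 array, bars are group means and vertical lines SDs (n = 3); levels of different genes are not comparable, and for Pdk1 the Ets1-/- arrays at 6.12 to 6.81 lie well below the wild-type arrays at 8.05 to 8.39.

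Pdk1 encodes a kinase that switches off pyruvate dehydrogenase and so restrains the use of pyruvate in the mitochondrion. Its log2 signal was 6.12, 6.80 and 6.81 in Ets1-/- and 8.39, 8.05 and 8.25 in wild type. The highest Ets1-/- array was still more than 1 log2 unit below the lowest wild-type array. The means were 6.58 ± 0.40 in Ets1-/- and 8.23 ± 0.17 in wild type (SD, n = 3 each), a difference of -1.65 ± 0.27 (SE; 95% interval -2.28 to -1.03; limma adjusted p = 0.0251). By its p-value Pdk1 ranked 279 among the 22180 genes. An exact permutation test on Pdk1 alone gave p = 0.1 (two-sided), the smallest that 3 arrays against 3 allow.

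A second probe set for Pdk1 showed the same direction. It read 4.81, 5.57 and 5.06 in Ets1-/- and 7.54, 7.63 and 6.90 in wild type, again without overlap. The dimmer probe set differed by -2.21 ± 0.31 (SE; 95% interval -2.97 to -1.45; limma adjusted p = 0.0455 when all 41345 probe sets were tested). In that same fit the brighter probe set had an adjusted p of 0.0707. Which transcripts of Pdk1 each of them covers is not stated.

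Leaving out arrays changed the Pdk1 call on the deposited values. Among the 6 fits that leave out 1 array it held without Ets1-/- replicate 1 (adjusted p = 0.0267). It was lost without Ets1-/- replicate 2 or 3 (0.0691 and 0.0578) and without wild-type replicate 1, 2 or 3 (0.103, 0.0705 and 0.0927), while the difference stayed between -1.77 and -1.42. After each array was centred on its median the difference was -1.44 (adjusted p = 0.00689), with Ets1-/- arrays at 6.69, 6.72 and 6.85 and wild-type arrays at 8.41, 8.04 and 8.14. On that scale the call held whichever array was left out, with adjusted p of 0.0210 to 0.0361, a check added after the values were seen. With the replicate number as a block, on the deposited values, Pdk1 was not called (adjusted p = 0.0700). The labels make cohorts of litter mates the replicates without saying that arrays of the same number share a litter.

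Of the 9 genes 1 passed the test, and as a list they are described by counts. Their median difference was -0.51, against -0.22 over all genes. A negative difference was found for 8 of the 9, against 73.0% of all genes. After median centring the median of the 9 was -0.30, against -0.01 over all genes. On that scale 6 of the 9 were negative, against 51.0% of all genes, and Slc2a1, Hk2 and Pfkp were positive. In 5 of them (Slc2a3, Aldoc, Pgk1, Ldha and Pdk1) every Ets1-/- array was below every wild-type array, which held for 16.1% of all genes. After median centring this held for Slc2a3 and Pdk1, against 9.3% of all genes. At an unadjusted limma p under 0.05 the same pair was lower, against 8.62% of all genes. The 9 genes were picked as a pathway with earlier results known, so these counts describe them and test nothing.

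**Figure D2:**
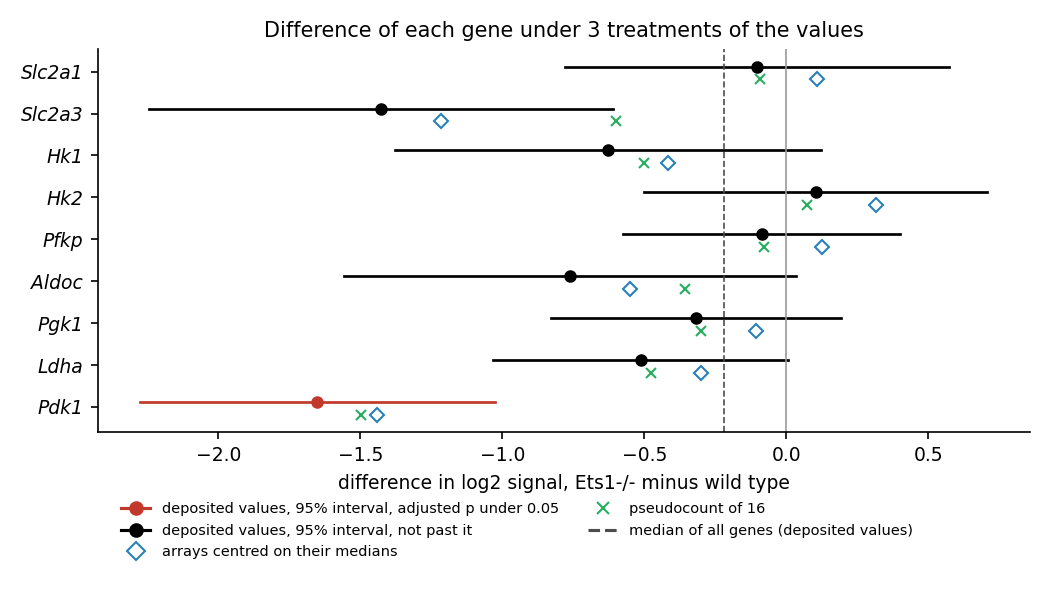
Difference in log2 signal (Ets1-/- minus wild type) of each of the 9 genes. Circles with lines are the deposited values with 95% intervals, diamonds the values after centring each array on its median, and crosses those with a pseudocount of 16; the dashed line is the median of all genes at -0.22, and Pdk1 stays at -1.44 or below in all 3.

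Pdk1 is 1 of a family of kinases, and the others did not pass the test. Pdk2 had a log2 signal of 5.42, 6.29 and 6.61 in Ets1-/- and 5.98, 6.03 and 5.96 in wild type, with a difference of 0.12 ± 0.32 (SE; limma adjusted p = 0.887). Pdk3 and Pdk4 had differences of -0.13 and -0.35 (adjusted p = 0.858 and 0.687), and that of Pdk3 turned to 0.08 after median centring. In all 3 the lowest array was Ets1-/- replicate 1. The opposing phosphatase Pdp1 had 4.82, 5.17 and 5.49 in Ets1-/- and 5.82, 6.06 and 5.81 in wild type. Its groups did not overlap, and its difference of -0.74 ± 0.25 (SE) did not pass (adjusted p = 0.259). Whether Pdk1 changed more than its relatives was not tested.

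Around the named genes, 88 further genes of glucose metabolism and its control were listed, and 78 were measured. Of these, 1 was called higher and 1 lower, together 2 of 78, where 1.86% of all genes were called. Their median difference was -0.12, against -0.22 over all genes. Of 8 other transporters and hexokinases 0 were called by limma (0 at an unadjusted p under 0.05, where 13.2% of all genes were), and the smallest p belonged to the carriers Slc2a2 and Slc2a10, with differences of -0.76 and -0.71 (adjusted p = 0.416 and 0.433). Of 15 other glycolytic enzymes 0 were called (1 at an unadjusted limma p under 0.05). The smallest p among them belonged to Ldhc, a lactate dehydrogenase of testis, and Eno3, a muscle enolase, with differences of -0.71 and -0.59 (adjusted p = 0.242 and 0.458).

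Gapdh and Pkm, enzymes of the later steps of glycolysis, had small differences. Gapdh, the glyceraldehyde phosphate dehydrogenase, had a log2 signal of 10.26, 10.48 and 10.47 in Ets1-/- and 10.72, 10.64 and 10.73 in wild type. The groups did not overlap, but the difference of -0.29 ± 0.21 (SE; adjusted p = 0.589) was close to that of the median gene. It passed with an intensity trend and robust prior (adjusted p = 0.0125). Pkm, the pyruvate kinase, had a difference of -0.20 ± 0.20 (SE; adjusted p = 0.688), which turned to 0.01 after median centring.

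Genes that control the phosphofructokinase step through fructose bisphosphates gave 0 calls among 6 (0 at an unadjusted limma p under 0.05). Pfkfb3, which makes the activator of phosphofructokinase, and Fbp2, a muscle fructose bisphosphatase, had differences of -0.68 and -0.55 (adjusted p = 0.480 and 0.597). Among 15 genes of pyruvate and lactate fate 0 were called (1 at an unadjusted limma p under 0.05). The lactate carrier Slc16a1 had 7.36, 8.68 and 8.56 in Ets1-/- and 7.81, 7.06 and 7.43 in wild type. In 2 of the 3 Ets1-/- arrays it was above all wild-type arrays, and the difference was 0.77 ± 0.40 (SE; adjusted p = 0.471). The pentose phosphate pathway, a side branch that makes NADPH and ribose, had 0 calls among 5 (0 at an unadjusted limma p under 0.05), with Rpia and Pgls at -0.35 and 0.18 (adjusted p = 0.770 and 0.771).

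**Figure D3:**
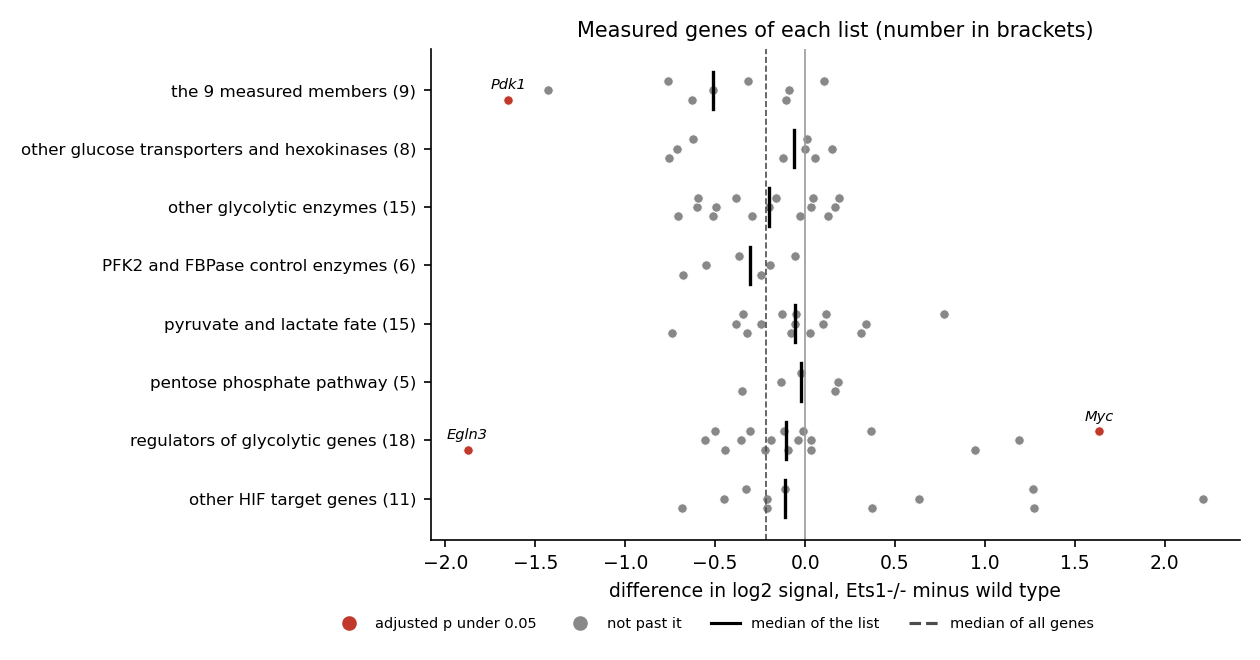
Difference in log2 signal (Ets1-/- minus wild type) of every measured gene in 8 groups, the 9 genes of the report on top. Each point is 1 gene, red where the limma adjusted p was under 0.05, short black lines are list medians and the dashed line the median of all genes; Pdk1 and Egln3 are called on the left and Myc on the right.

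Both called genes outside the 9 were regulators, of 18 measured. Egln3 encodes the prolyl hydroxylase PHD3, which marks HIF-1 alpha for destruction when oxygen is present and is itself a HIF target. Its log2 signal was 6.41, 6.23 and 6.16 in Ets1-/- and 8.39, 8.14 and 7.91 in wild type. The groups were far apart, and Egln3 fell by 1.88 ± 0.23 (SE; limma adjusted p = 0.00765) and kept its call when any 1 array was left out (adjusted p up to 0.0451). After median centring it fell by 1.67 (adjusted p = 0.0221), but on that scale the call was lost without Ets1-/- replicate 2 or 3 or wild-type replicate 1 or 2 (adjusted p up to 0.0853).

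Myc, the transcription factor that activates glycolytic genes in dividing T cells, was higher. The Myc signal (log2) was 7.59, 7.76 and 8.08 in Ets1-/- and 6.58, 6.37 and 5.58 in wild type. Without overlap between the groups, Myc rose by 1.64 ± 0.32 (SE), at the edge of the threshold with an adjusted p of 0.0499. The call was lost whichever array was left out (adjusted p of 0.0687 to 0.148) and with the replicate number as a block (0.110), and after median centring the rise was 1.85 (adjusted p = 0.0224). On that scale it was lost without any 1 of the Ets1-/- arrays (adjusted p of 0.0517 to 0.108).

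The remaining regulators did not pass. Hif1a had 7.57, 7.76 and 7.74 in Ets1-/- and 7.88, 8.02 and 7.76 in wild type, a difference of -0.19 ± 0.21 (SE; adjusted p = 0.711) that turned to 0.02 after median centring. Egln1 and Egln2, the other prolyl hydroxylases of HIF, had differences of 0.36 and -0.22 (adjusted p = 0.550 and 0.693). Prkaa1, a catalytic subunit of the energy sensor AMPK, had 6.73, 7.50 and 7.02 in Ets1-/- and 6.23, 5.87 and 5.58 in wild type. Its difference of 1.19 ± 0.29 (SE) had a limma adjusted p of 0.109. It passed under 8 of 17 alternatives, median centring among them (1.40, adjusted p = 0.0235), a setting that called 745 genes in all against 413. Prkaa1 did not pass with any 1 array left out (adjusted p of 0.0843 to 0.323) or with the replicate number as a block (0.195). Epas1, which encodes HIF-2 alpha, was at 0.94 (adjusted p = 0.407).

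Other known HIF target genes gave 0 calls among 11, with a median difference of -0.11, against -0.22 over all genes. At an unadjusted limma p under 0.05 there were 4 of the 11, against 13.2% of all genes in either direction, and the 4 did not share a sign. Ddit4, an inhibitor of mTOR signalling, had 8.54, 9.66 and 9.86 in Ets1-/- and 7.69, 8.26 and 8.29 in wild type. All its Ets1-/- values were above all wild-type values, with a difference of 1.27 ± 0.38 (SE; adjusted p = 0.197). It passed after median centring (1.48, adjusted p = 0.0262), with array weights (1.64, adjusted p = 0.0151) and without Ets1-/- replicate 1 (1.68, adjusted p = 0.0380). Ndrg1, a stress-induced gene, was at 1.27 ± 0.43 (SE; adjusted p = 0.254), with overlapping groups, and passed with array weights (adjusted p = 0.0377) and with quantile normalization and the pseudocount (0.0422). Adm, which encodes the vasodilator peptide adrenomedullin, had a log2 signal of 7.55, 5.94 and 7.46 in Ets1-/- and 5.81, 5.82 and 2.67 in wild type. The difference was 2.21 ± 0.86 (SE; adjusted p = 0.329) and 1.17 without wild-type replicate 3. Vegfa, the growth factor of blood vessels, went the other way, with 3.63, 3.84 and 3.80 in Ets1-/- and 4.79, 4.21 and 4.34 in wild type. Its groups did not overlap, and the difference was -0.69 ± 0.24 (SE; adjusted p = 0.275).

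**Figure D4:**
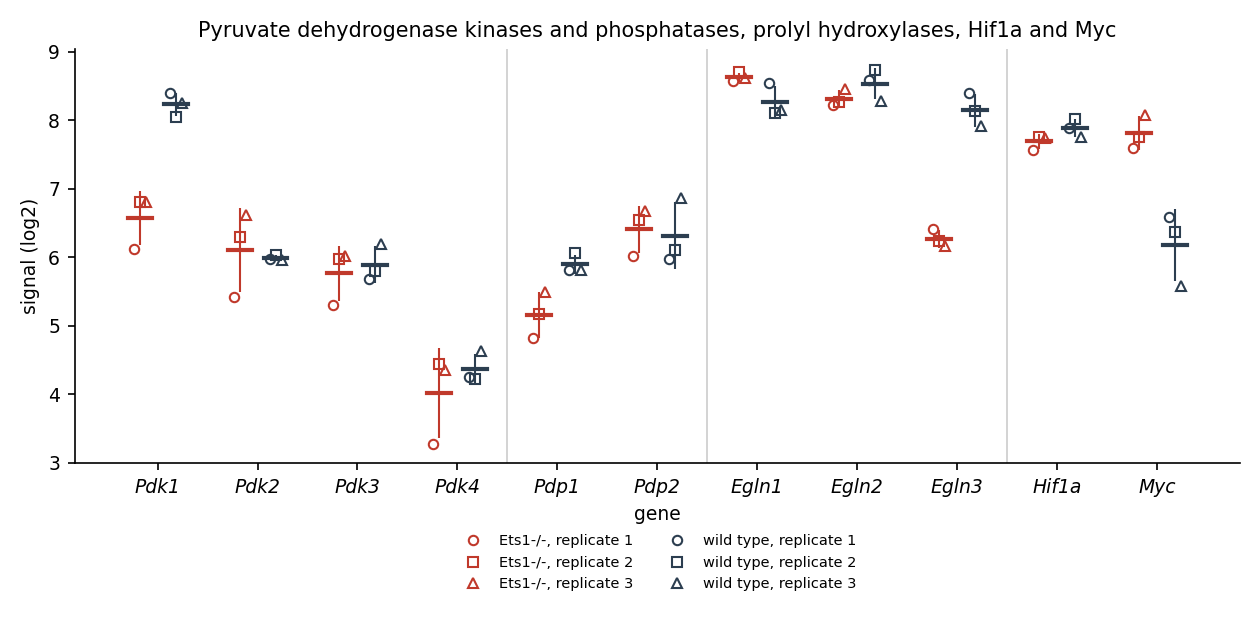
Log2 signal of the pyruvate dehydrogenase kinases and phosphatases, the prolyl hydroxylases of HIF, Hif1a and Myc. Symbols are arrays, bars means and lines SDs (n = 3); Pdk1 and Egln3 are lower on all Ets1-/- arrays and Myc is higher, while Pdk2 to Pdk4, Egln2 and Hif1a overlap.

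The genes whose 6 values were most like those of Pdk1, each centred on its own mean, were Slc20a1, Ccnjl and Bub1b. They had root mean square differences of 0.0479, 0.0806 and 0.0882 log2 units from Pdk1 over 6 arrays, among 10644 named genes brighter than the median probe set. Slc20a1, a phosphate carrier, had 5.17, 5.87 and 5.80 in Ets1-/- and 7.32, 7.10 and 7.29 in wild type. Bub1b, a kinase of the spindle checkpoint, had 6.01, 6.69 and 6.58 in Ets1-/- and 8.11, 7.93 and 7.91 in wild type. As with Pdk1, the lowest array for both was Ets1-/- replicate 1. These genes were selected for likeness, so the likeness itself is a description.

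Markers of other cells and of division differed between the same groups. Of 9 measured genes of cycling cells, 0 were called by limma (8 at an unadjusted p under 0.05, against 13.2% of all genes). All 9 had a negative difference, against 73.0% of all genes, and their median was -1.03, against -0.22 over all genes. Their summed linear signal was 1878 to 2656 in Ets1-/- and 3926 to 4774 in wild type. Of 15 macrophage and monocyte markers 11 rose, here meaning called higher by limma, where 1.29% of all genes were. The sum over the 15 was 3996 to 5376 in Ets1-/- and 775 to 941 in wild type. Of 10 dendritic-cell markers 5 rose, with sums of 3026 to 3309 in Ets1-/- and 411 to 469 in wild type. H2-Eb1, H2-Ab1 and H2-Aa, MHC class II chains that B cells and macrophages also express, made up 83.6% to 89.5% of that sum in Ets1-/- and 43.4% to 56.1% in wild type. Itgax and Irf8 were the other 2 that rose. Xcr1, Zbtb46, Cd209a and Flt3 had differences of -1.15, -0.38, -0.19 and 0.03, and Siglech one of 0.81, none of them called. Of 9 B-cell markers 4 rose, with sums of 382 to 821 in Ets1-/- and 97 to 136 in wild type. Cd79b, Blnk, Pax5, Fcer2a and Cr2 had differences of 1.78, 1.74, 1.23, 0.81 and -0.32, none of them called. Array signal has no true 0, so no marker could be called absent.

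The 9 measured markers listed for double-positive cells had a summed linear signal of 19179 to 20181 in Ets1-/- and 18771 to 19750 in wild type. Cd3e, Cd3g and Cd3d among them are shared by other T cells, so an even sum does not measure the share of double-positive cells. Of these 9, Ptcra, the pre-T-cell receptor chain of an earlier stage, rose by 1.50 (adjusted p = 0.0282), and the other 8 were not called. Groups did not overlap for 6 of the 9. Among them Dntt and Rag2 had differences of -0.46 and -0.29 (limma adjusted p = 0.389 and 0.581). Of the 9, 5 had a negative difference and 4 a positive one. Of 7 markers of mature single-positive T cells 4 rose, with sums of 1103 to 1468 in Ets1-/- and 308 to 402 in wild type. The lists for erythroid cells (4 measured), neutrophils (8) and thymic epithelium (7) had 0 calls each by limma (0, 1 and 0 at an unadjusted p under 0.05). The part of any of these cell types, or of fewer dividing cells, in the values of Pdk1, Slc2a3, Egln3 or Myc was not tested.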

How the data were processed

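RNA of double-positive thymocytes was measured on 6 single-channel Affymetrix arrays, 3 labelled Ets1-/- and 3 labelled wild type by their titles. The authors deposited 1 log2 value per probe set and array (41345 probe sets). That they are log2 follows from their range, -15.86 to 16.36. The submitters' processing notes name affy. For background correction, normalization and genome build no source used here gives a method. The number of arrays limits the precision.

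Of the probe sets, 23521 named 1 gene in the platform annotation, 1814 several and 16010 none. The brightest probe set stood for each of 22180 genes. limma 3.58.1 in R 4.3.3 (lmFit, eBayes, two-sided, no covariate) compared Ets1-/- minus wild type over all genes, with a Benjamini-Hochberg threshold of 0.05. SE is limma's moderated standard error. The labels call cohorts of litter mates the replicates, and p-values cover only the variation between such cohorts. Tested on simulated data for this comparison (22180 genes, 10 runs with 200 changed), the fit recovered 2.59% of genes changed by 1, 54.0% by 2 and 82.8% by 3 on the log2 scale, and 4.52% of calls were wrong. The simulated noise was normal, independent between genes and of equal spread in both groups. It held none of the shifts between whole arrays seen here, so these shares need not hold for the real values.

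The genes and lists were chosen with earlier results of these data known. Named are the 10 genes, Ets1, every called gene of the pathway lists and up to 4 others per list with the smallest p, and the 3 genes most like the member with the smallest adjusted p. Pdk2, Pdk3, Pdk4, Egln1, Egln2, Hif1a, Gapdh, Pkm and Flt3 were added after their values were seen. Symbols were matched by gene identifier to RefSeq GRCm38.p6 for 23328 probe sets. Alternatives covered probe choice, dim genes, normalization, a pseudocount of 16, the variance model, a replicate block and each array left out. Figures used Python 3.11.15 and matplotlib 3.10.9.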

Additional observations from a re-analysis of the deposited data

How the results depend on the processing

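Pdk1 kept its direction under every alternative run and its call under 18 of 24. Those 18 include the 6 fits with median centring and 1 array left out, which were added after the values were seen. They also include the dimmer Pdk1 probe set (limma adjusted p = 0.0455 over all probe sets). In that fit the brighter probe set was not called (0.0707), which is not counted among the losses. The number of the 9 genes called was 1, and 2 with an intensity trend and robust prior, where Slc2a3 passed too. It was 0 to 1 when 1 array was left out and 1 each time when median centring was added. Over all genes the count was 413. It was 798 with quantile normalization, 745 with median centring, 777 with cyclic loess, 907 with a pseudocount of 16, 1350 with both quantile normalization and the pseudocount, 1172 with the trend and robust prior and 1019 with array weights. It was 190 to 379 with 1 array left out and 337 to 526 with centring as well. The causes were not tested. Of the 78 other genes of glucose metabolism 2 were called. The count was 4 with median centring, 4 with quantile normalization and the pseudocount, 4 with the trend and robust prior and 5 with array weights. It was 1 to 2 with 1 array left out and 0 to 2 with centring as well.

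Deviations of same-numbered arrays correlated at -0.072, -0.008 and -0.048, and no array correlated best with its own number. Arrays of different number correlated at -0.037 to 0.082. Deviations from a mean of few arrays offset each other, so these values cannot decide whether same-numbered arrays share a litter. With the replicate block 0 of the 9 genes were called by limma (2 at an unadjusted p under 0.05, and Pdk1 at an adjusted p of 0.0700), with 1 of the 78 others, Myc being lost (adjusted p = 0.110), and 311 genes in all.

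Values near 0 that passed no test changed sign. Slc2a1 was at 0.028, 0.11, 0.047, 0.022 and 0.014 with quantile normalization, median centring, cyclic loess, quantile normalization and pseudocount, and array weights. Under the first 4 of these Pfkp was at 0.0060, 0.12, 0.043 and 0.0057, and under all 5 Pdk3 was at 0.029, 0.083, 0.094, 0.019 and 0.13. Median centring put Ets1 at 0.11, Hif1a at 0.020 and Pkm at 0.011, and array weights put Pdk4 at 0.018. With 1 array left out, first as deposited and then with median centring, Slc2a1 ran from -0.29 to 0.092 and from -0.11 to 0.33, Hk2 from -0.072 to 0.28 and from 0.24 to 0.41, Pfkp from -0.16 to -0.022 and from -0.0064 to 0.27, and Pgk1 from -0.43 to -0.23 and from -0.21 to 0.042. As deposited Ets1 ran from -0.19 to 0.049, Pdk2 from -0.13 to 0.46, Pdk3 from -0.26 to 0.10, Pdk4 from -0.56 to 0.030 and Rpia from -0.83 to 0.015. Dim signals, as for Slc2a3 and Aldoc, limit the sizes given for those genes.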
